A study of Mus musculus with 42 samples.

Results

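A set of 10 genes of neutrophil granulocytes were followed through a phosphorylated-S6 ribosome pulldown of mouse olfactory tissue. They are 10 of the 44674 genes in the table: S100a8, S100a9, Ngp, Camp, Retnlg, Mmp8, Mmp9, Cxcr2, Elane and Mpo. The genes were picked with their pulldown and input levels in these libraries already known, so every value of these 10 is a description and carries no p-value. All 10 passed the filter on low counts, which 21168 genes did.

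The tissue was the main olfactory epithelium. The mice were C57BL/6NCrl males of 8 to 12 weeks, and tissue was taken after 1 h without odour or with the odour of a diet. The diets were normal chow (NCD), a bacon-flavoured chow (BFD) and a lard-based high-fat diet (HFD_lard). All mice shared genotype and sex. Each pool combined the epithelia of 4 mice, and there were 6 NCD pools and 5 pools each for no odour, BFD and HFD_lard. Every pool gave a pulldown library, the RNA bound to ribosomes carrying phosphorylated S6, and an input library from the same homogenate, which made 42 libraries.

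Neutrophils are short-lived white blood cells that mature in the bone marrow and fill their granules in a fixed order. Azurophil granules with myeloperoxidase (Mpo) and neutrophil elastase (Elane) are made first, specific granules (Camp, Ngp, Mmp8) later and gelatinase granules (Mmp9) last, while S100a8 and S100a9 accumulate in the cytosol. S6 is a protein of the small ribosomal subunit that is phosphorylated in active neurons and in other cells under growth signals, so the antibody is not tied to one cell type.

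The upstream sequences of 4 genes are shown because S100a8 and S100a9 had the highest and Mmp8 and Mpo the lowest pulldown-to-input ratios of the 10. Each is the run of 250 bases before the RefSeq gene start on GRCm38.p6, written 5′ to 3′ along the gene. Capitals mark the letters TTGCNNAA, a form of the C/EBP motif, or GAGGAAGT, a form of the PU.1 motif, on either strand. C/EBP factors and PU.1 are known regulators of granulocyte genes.
S100a8 (chr3:90668821-90669070, plus strand): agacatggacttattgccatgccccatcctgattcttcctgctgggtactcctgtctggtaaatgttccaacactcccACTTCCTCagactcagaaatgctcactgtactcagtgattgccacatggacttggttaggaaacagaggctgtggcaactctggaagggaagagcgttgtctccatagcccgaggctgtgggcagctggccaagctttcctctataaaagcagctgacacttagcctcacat
S100a9 (chr3:90695722-90695971, minus strand): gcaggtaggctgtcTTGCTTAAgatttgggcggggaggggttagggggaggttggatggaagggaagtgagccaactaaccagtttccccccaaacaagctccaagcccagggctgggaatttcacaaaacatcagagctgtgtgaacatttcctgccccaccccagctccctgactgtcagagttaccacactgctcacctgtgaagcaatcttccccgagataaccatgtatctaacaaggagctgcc
Mmp8 (chr9:7558179-7558428, plus strand): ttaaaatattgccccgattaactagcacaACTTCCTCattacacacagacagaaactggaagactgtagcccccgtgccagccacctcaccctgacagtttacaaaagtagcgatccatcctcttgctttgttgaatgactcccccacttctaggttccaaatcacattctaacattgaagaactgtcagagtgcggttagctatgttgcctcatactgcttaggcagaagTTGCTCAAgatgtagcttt
Mpo (chr11:87793534-87793783, plus strand): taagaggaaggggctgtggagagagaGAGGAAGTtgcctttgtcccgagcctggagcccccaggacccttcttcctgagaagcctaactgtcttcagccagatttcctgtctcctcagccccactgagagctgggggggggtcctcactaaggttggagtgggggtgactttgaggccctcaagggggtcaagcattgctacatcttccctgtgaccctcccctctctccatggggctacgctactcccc
Of the 9 genes with an entry, 4 held the C/EBP letters (S100a9, Ngp, Mmp8 and Retnlg) and 4 the PU.1 letters (S100a8, Mmp8, Elane and Mpo). Among all 32851 upstream sequences of this length the shares were 9.56% and 2.44%. The 2 sets of letters do not overlap in any of the 4 sequences shown, and genes on both sides of the ratio held PU.1 letters. Mmp9 was not among the sequences used.

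Depth was even, with 25392812 to 36738330 counts in a pulldown library and 24839555 to 36781553 in an input library. Ribosomal RNA and similar transcripts took 14.6 to 28.5% of counts in the pulldowns without odour and 10.7 to 21.7% in those with odour. In the inputs the shares were 21.7 to 32.2% without and 9.76 to 21.9% with odour. Markers of mature sensory neurons, the labelled tissue's main cell, passed the filter 8 of 8 and summed to between 16329 and 24979 CPM in the pulldowns. Levels are CPM, counts scaled to a common library size by the TMM method, and a log2 ratio is the log2 level of a pulldown minus that of its own input, with a prior count of 2. A few libraries stood apart in the genes described here. They were the input of no-odour pool 4, the input of HFD_lard pool 6 and the pulldown of BFD pool 1. Some values without no-odour pool 4 or BFD pool 1 are given below. Those without HFD_lard pool 6 enter only the ranges over all single pools left out.

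The neutrophil genes did not share one behaviour in the pulldown. S100a8, S100a9, Camp and Mmp9 were higher in the pulldown than in its own input in 21 of 21 pools, and Ngp and Retnlg in 20 of 21. Cxcr2 was higher in 15 of 21 pools. Elane was higher in 5, Mmp8 in 4 and Mpo in 3 of the 21 pools. The fitted log2 pulldown over input, averaged over the 4 groups, ran from 1.96 for S100a8 to -1.17 for Mmp8. The median of the 10 was 0.65, against -0.01 over all 21168 genes.

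**Figure D1:**
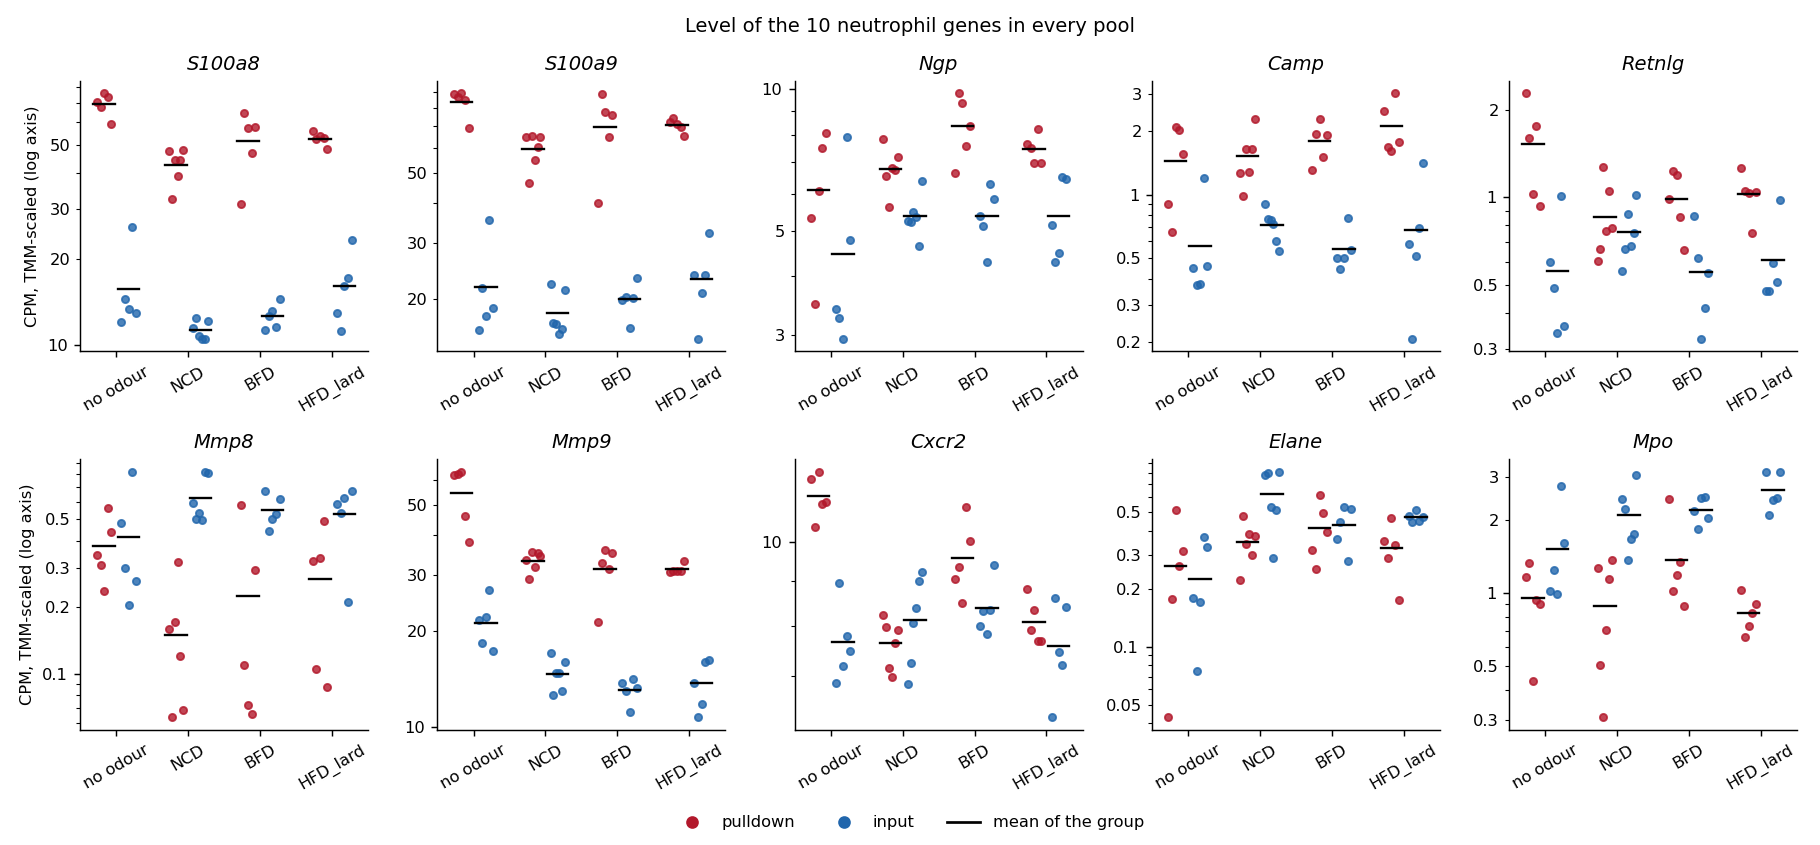
Level of each neutrophil gene in CPM (TMM-scaled, log axis, a scale of its own per panel) in the pulldown (red) and input (blue) library of every pool, grouped by odour, with black lines for group means. S100a8, S100a9, Camp and Mmp9 lie higher in the pulldown in all 21 pools, while Mpo and Mmp8 lie lower in most, and Mmp9 without odour sits above every odour pool in both library types.

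S100a8 (ENSMUSG00000056054, chr3:90668978-90670035, plus strand) and S100a9 (ENSMUSG00000056071, chr3:90692632-90695721, minus strand) are neighbours that encode the subunits of calprotectin, a calcium-binding protein that sequesters metal ions. S100a8 in the pulldowns without odour was at 70.8, 67.8, 75.8, 73.4 and 59.3 CPM for pools 1, 2, 3, 4 and 6. With NCD odour it ranged from 32.4 to 48.1 CPM with a median of 44.4. The 5 BFD pools had 31.2, 64.9, 57.3, 47.0 and 57.7 CPM, and the 5 HFD_lard pools 56.2, 52.3, 53.8, 52.8 and 48.3 CPM. All NCD and HFD_lard pools therefore lay below every pool without odour, and 15 of the 16 odour pools did, BFD pool 2 being the exception. The share of all genes that separate in this way for a single diet was not computed, here or for the genes below.

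S100a8 in the inputs was at 12, 14.5, 13.4, 25.8 and 13 CPM without odour, and pool 4 stood well above the others. The odour inputs ran from 10.5 to 23.3 CPM, with the top value in HFD_lard pool 6. The groups overlapped. In bulk tissue, fewer cells of a type and less RNA per cell cannot be told apart. The log2 ratio of S100a8 was 2.19 ± 0.42 without odour (SD, n = 5), 1.90 ± 0.26 with NCD (n = 6), 1.98 ± 0.33 with BFD (n = 5) and 1.75 ± 0.46 with HFD_lard odour (n = 5). The ranges of the 4 groups overlapped.

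S100a9 followed the same order. Its pulldown level was 88.4, 86.4, 89.0, 84.6 and 69.1 CPM without odour, 46.5 to 65.4 CPM with NCD (median 62.5), 40.2, 88.8, 77.6, 64.9 and 76.1 CPM with BFD and 72.4, 74.3, 71.0, 69.7 and 65.2 CPM with HFD_lard odour. Only the NCD group did not overlap with the pools without odour. In the inputs S100a9 was at 16, 21.6, 17.6, 35.4 and 18.7 CPM without odour and 14.9 to 32.4 CPM with odour, and the log2 ratio was 1.99 ± 0.47 (SD, n = 5) and 1.71 ± 0.37 (SD, n = 16).

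The S100 genes moved together from pool to pool. With each odour group centred on its mean, their log2 levels had a Pearson correlation of 0.98 over the 21 pulldowns and 0.85 over the 21 inputs, as a description of libraries that share depth and preparation. Per kilobase of exon, S100a9 was above S100a8 in each library: the pulldown means were 134 ± 25.5 and 77.2 ± 17.8 CPM per kb (SD, n = 21), and the input means 39.5 ± 10.1 and 19.9 ± 5.73. The per-length level of S100a9 over S100a8 in the pulldown was 1.60 ± 0.07 without odour (range 1.53 to 1.69, n = 5). With odour it was 1.86 ± 0.07 for NCD (n = 6), 1.78 ± 0.05 for BFD (n = 5) and 1.78 ± 0.07 for HFD_lard (n = 5). Every pool given an odour was at 1.71 or above. How many other gene pairs separate in this way was not counted. This quotient does not depend on library scaling. In the inputs it was 1.85 ± 0.10 without odour and spanned 1.63 to 2.57 over all 21 pools, so the groups overlapped.

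Specific granule genes were scarcer. Ngp (ENSMUSG00000032484, chr9:110419747-110423012, plus strand), the cathelicidin-like neutrophilic granule protein, ranged from 3.50 to 9.80 CPM in the pulldowns and 2.94 to 7.90 CPM in the inputs. Camp (ENSMUSG00000038357, chr9:109847379-109849617, minus strand), the precursor of an antimicrobial cathelicidin peptide, ranged from 0.664 to 3.01 CPM and from 0.207 to 1.41 CPM. Both belong to the same protein family, yet their fitted log2 pulldown over input was 0.49 (SE 0.07) for Ngp and 1.45 (SE 0.15) for Camp. Camp rested on 7 to 42 counts per input library, where counting error is large.

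Mmp8 (ENSMUSG00000005800, chr9:7558456-7568485, plus strand), neutrophil collagenase, was the scarcest per kilobase of exon. It had 2 to 20 counts in a pulldown and 6 to 27 in an input library, or 0.0634 to 0.579 and 0.205 to 0.820 CPM. The fitted log2 ratio was -0.04 (SE 0.48) without odour, -2.07 (SE 0.45) with NCD, -1.51 (SE 0.49) with BFD and -1.06 (SE 0.48) with HFD_lard odour. NCD pools had ratios of -2.72 to -0.55, all below the -0.50 to 0.62 of pools without odour, whereas BFD and HFD_lard overlapped with them. At these counts a difference of this kind rests on a few reads per library.

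Mmp9 (ENSMUSG00000017737, chr2:164940780-164955850, plus strand), gelatinase B, was the gene of the set whose level separated odour from no odour most fully. Its pulldown level was 62.2, 62.3, 63.5, 46.0 and 38.2 CPM without odour, 29.1 to 35.5 CPM with NCD (median 34.0), 21.4, 32.7, 35.9, 31.3 and 35.2 CPM with BFD and 30.6, 31, 30.8, 31 and 33.1 CPM with HFD_lard odour. Its input level was 21.6, 18.3, 22.1, 26.8 and 17.3 CPM without odour, and 12.6 to 17 CPM with NCD (median 14.7). With BFD odour the inputs held 13.7, 13, 11.1, 14.1 and 13.2 CPM, and with HFD_lard odour 13.8, 10.7, 11.8, 15.9 and 16.2 CPM. All 16 odour pools lay below all 5 pools without odour in the pulldown and again in the input.

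The Mmp9 log2 ratio was 1.34 ± 0.39 without odour (SD, n = 5) and 1.21 ± 0.26 with odour (SD, n = 16), and the groups overlapped. Mmp9 was 1 of the 10 genes whose odour and no-odour pools did not overlap in the pulldown level and 1 of 10 in the input level, and none of the 10 did so in the ratio. Over all genes tested the shares with no overlap were 3.62% for the pulldown level, 4.00% for the input level and 3.54% for the ratio.

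Mmp9 is also a classic gene of osteoclasts, the cells that resorb bone. Of 7 osteoclast genes, a list added after the data were seen, 6 were called higher in the pulldown than in the input, against 34.0% of all genes. With odour 3 were called lower in the pulldown libraries (Acp5, Ctsk and Ocstamp) and 2 in the input libraries (Acp5 and Ctsk), against 3.63% and 6.40% of all genes. Their summed pulldown level was 189 to 305 CPM without and 89.9 to 194 CPM with odour, and the summed input level 76.6 to 114 and 53.6 to 72.3 CPM. Of 7 genes of bone-forming cells, 5 were called lower with odour in the pulldown and 6 in the input libraries (median log2 -0.46), with input sums of 1537 to 2234 CPM without and 1108 to 1749 CPM with odour. Which cells gave the Mmp9 counts was not tested.

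Retnlg (ENSMUSG00000022651, chr16:48872621-48874496, plus strand), a secreted protein of the resistin family, was at 2.28, 1.59, 1.02, 1.76 and 0.935 CPM in the pulldowns without odour and at 0.601 to 1.27 CPM with odour, with overlap. Its inputs spanned 0.342 to 1.01 CPM without odour and 0.325 to 1.02 CPM with it. The Retnlg log2 ratio was 0.77 to 1.82 without odour against -0.35 to 0.50 with NCD odour, with no overlap between these 2 groups. BFD (0.17 to 1.69) and HFD_lard (0.09 to 1.29) overlapped with the pools without odour. Of the Retnlg sequence, 5.51% of 31-base words also occur in Retnla.

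Cxcr2 (ENSMUSG00000026180, chr1:74153989-74161246, plus strand) is the chemokine receptor that draws neutrophils out of the marrow and into tissue. Its pulldown level was 11.8, 10.4, 12.1, 11.1 and 11.1 CPM without odour, 6.98 to 8.23 CPM with NCD (median 7.77), 9.06, 9.36, 8.51, 11 and 10.0 CPM with BFD and 8.83, 7.92, 8.34, 7.68 and 7.68 CPM with HFD_lard odour. NCD and HFD_lard pools were all below the pools without odour, and in all 15 of 16 odour pools were. The input level was 6.87 to 8.96 CPM without and 6.27 to 9.40 CPM with odour, fully overlapping.

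The Cxcr2 log2 ratio was thus 0.56 ± 0.23 without odour (SD, n = 5) against -0.08 ± 0.22 with NCD (n = 6), 0.19 ± 0.12 with BFD (n = 5) and 0.10 ± 0.25 with HFD_lard odour (n = 5). In 13 of 16 odour pools the ratio was below the lowest pool without odour. Of its 31-base words, 12.1% are shared with other genes, among them Churc1, Ppp1r16b and Pbld1.

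Elane (ENSMUSG00000020125, chr10:79886247-79888215, plus strand), a serine protease of azurophil granules, had 1 to 17 counts in a pulldown and 2 to 27 in an input library. Its input level was 0.179, 0.0750, 0.171, 0.373 and 0.327 CPM without odour and 0.277 to 0.809 CPM with odour, and 13 of 16 odour inputs lay above every input without odour. Elane pulldowns spanned 0.0430 to 0.512 and 0.174 to 0.613 CPM. The log2 ratio ran from -1.55 to 1.29 over all pools.

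Mpo (ENSMUSG00000009350, chr11:87793581-87804413, plus strand), the haem enzyme that makes hypochlorous acid, had a pulldown level of 1.16, 1.33, 0.433, 0.937 and 0.904 CPM without odour and 0.308 to 2.43 CPM with odour. Its input level was 1.02, 1.24, 0.992, 2.76 and 1.60 CPM without odour and 1.37 to 3.16 CPM with it. The Mpo log2 ratio was -1.74 to -1.50 in the HFD_lard pools, below the -1.49 to 0.18 of the pools without odour and the -1.14 to 0.16 of the BFD pools. The highest HFD_lard pool and the lowest pool without odour were nearly equal. The library kit kept no strand, and 512 bases of Mpo exons (15.0%) overlap Gm11505 on the opposite strand, so their reads cannot be told apart. Of the Mpo 31-base words, 12.1% are shared with other genes.

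**Figure D2:**
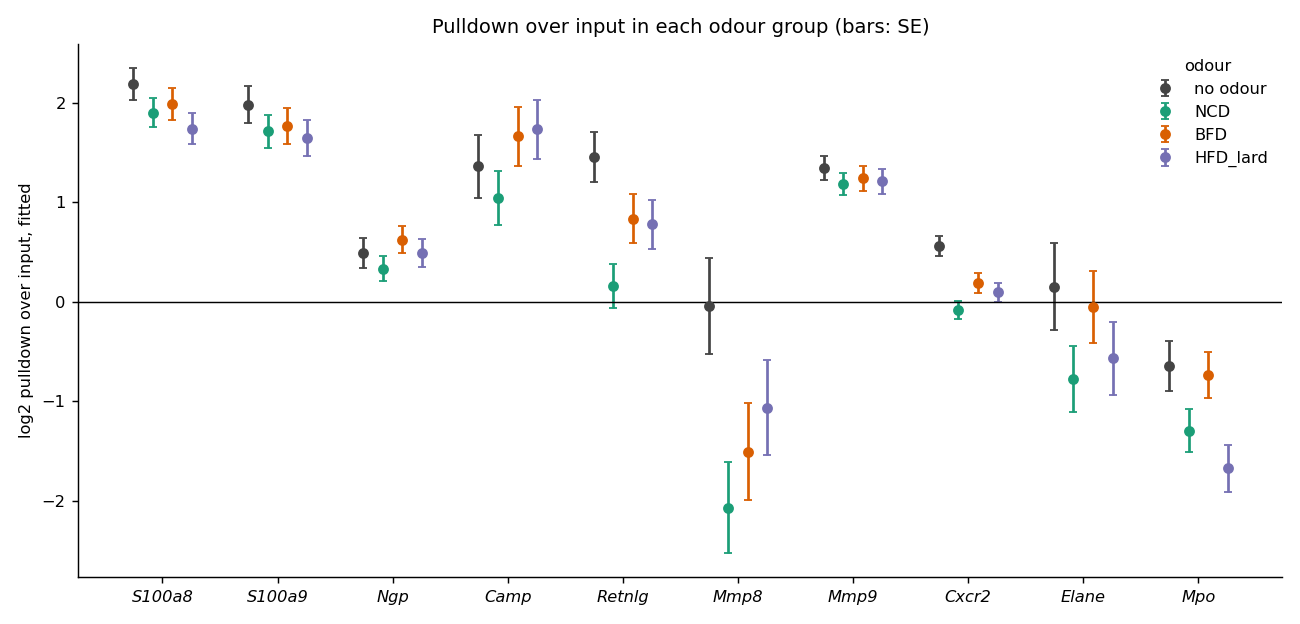
Fitted log2 pulldown over input of each neutrophil gene (y axis) in the 4 odour groups (colours), with standard errors as bars. S100a8 lies highest in all groups, from 1.74 to 2.19, and Mpo lies below 0 in all 4, from -1.67 to -0.65.

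Set in order over all pools, the fitted log2 pulldown over input was 1.96 (SE 0.08) for S100a8, 1.78 (SE 0.09) for S100a9, 1.45 (SE 0.15) for Camp and 1.25 (SE 0.06) for Mmp9. Retnlg at 0.81 (SE 0.12), Ngp at 0.49 (SE 0.07) and Cxcr2 at 0.19 (SE 0.05) came next, and Elane at -0.31 (SE 0.19), Mpo at -1.09 (SE 0.12) and Mmp8 at -1.17 (SE 0.24) last. The standard error ranges of Camp and Mmp9 touched, as did those of Mpo and Mmp8. The cytosolic S100 pair came before the granule genes, which lay on both sides of 0.

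Levels of different genes were compared per kilobase of exon. In the pulldown Mmp9 reached 10.6 ± 3.24 CPM per kb, Ngp 5.85 ± 1.12, Cxcr2 2.98 ± 0.52, Camp 2.25 ± 0.73 and Retnlg 1.83 ± 0.68 (SD, n = 21). Elane at 0.343 ± 0.133, Mpo at 0.293 ± 0.130 and Mmp8 at 0.103 ± 0.069 CPM per kb closed the order. In the input Mmp9 (4.41 ± 1.12) and Ngp (4.22 ± 0.98) did not differ beyond their spread. S100a8 and S100a9 were first in both.

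The question of whether an odour moved these genes was put to each library type on its own and to the ratio. All 3 odours share the same 5 pools without odour, so their values are set side by side only. In the pulldown libraries, any odour over none on the fitted log2 scale was -0.77 (SE 0.10) for Mmp9, -0.51 (SE 0.11) for S100a8, -0.43 (SE 0.06) for Cxcr2 and -0.33 (SE 0.11) for S100a9. Retnlg (-0.66, SE 0.20) and Mmp8 (-0.86, SE 0.44) also had negative values. Ngp (0.29, SE 0.13), Camp (0.28, SE 0.23), Elane (0.44, SE 0.35) and Mpo (0.08, SE 0.28) had positive ones.

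In the input libraries the same difference was -0.62 (SE 0.09) for Mmp9, -0.25 (SE 0.15) for S100a8, -0.11 (SE 0.16) for S100a9 and 0.07 (SE 0.08) for Cxcr2. Elane (1.13, SE 0.30) and Mpo (0.61, SE 0.20) were higher with odour in the input. Mmp8 (0.45, SE 0.28), Ngp (0.28, SE 0.16), Retnlg (0.19, SE 0.25) and Camp (0.19, SE 0.30) also had positive values. In the pulldown 6 of 10 genes had a negative value, and in the input 3 of 10 had.

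Scaling to the whole library total, ribosomal RNA included, shifted the median of all genes by 0.24 in the input and 0.09 in the pulldown. On that scale the input difference of unfitted log2 levels was -0.36 for Mmp9, 0.32 for Cxcr2 and 0.03 for S100a8, against -0.61, 0.07 and -0.22 with TMM scaling. The S100a8 and S100a9 input values thus change sign with the scaling, while the pulldown values of S100a8, S100a9, Mmp9, Cxcr2, Retnlg and Mmp8 stayed negative under each scaling tried. The Mpo pulldown difference, 0.05, was -0.03 when scaled to the total without ribosomal RNA genes.

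**Figure D3:**
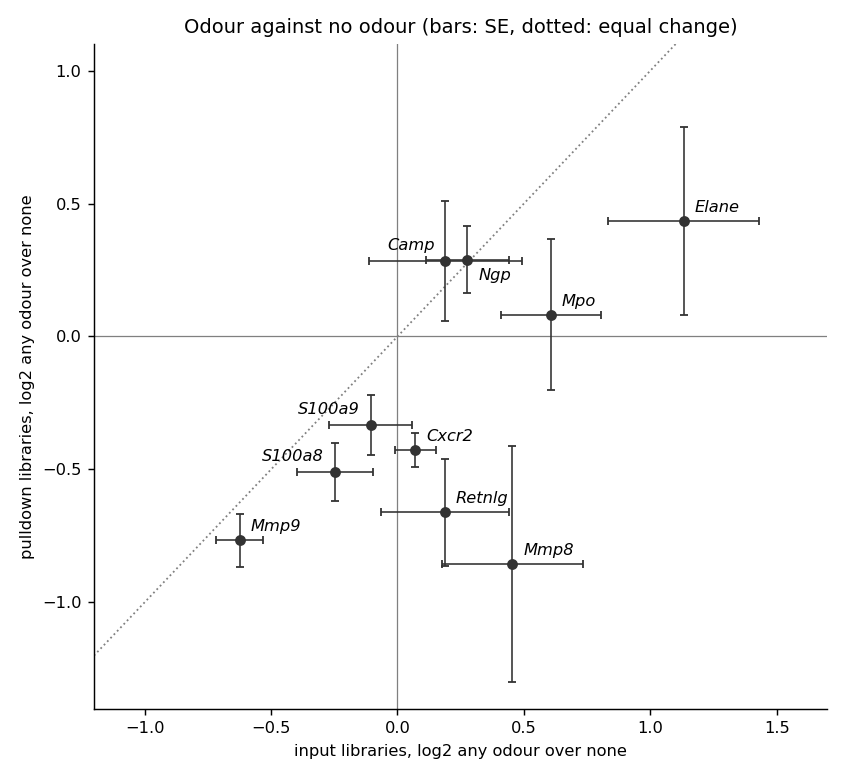
Fitted log2 any odour over none of each neutrophil gene in the input libraries (x axis) and the pulldown libraries (y axis), with standard errors as bars and a dotted line where both are equal. Mmp9 lies near the line at -0.62 and -0.77, Cxcr2 lies at 0.07 and -0.43, and Elane and Mpo lie to the right.

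In the ratio, any odour over none was negative for 9 of the 10 genes, with a median of -0.40 against -0.01 over all genes. The 10 genes share the same pools, and the share of all genes with a negative value was not computed. Mmp8 (-1.50, SE 0.55), Retnlg (-0.87, SE 0.29), Elane (-0.62, SE 0.48), Mpo (-0.59, SE 0.29) and Cxcr2 (-0.50, SE 0.11) had the lowest values. S100a8 (-0.31, SE 0.18), S100a9 (-0.27, SE 0.21), Mmp9 (-0.13, SE 0.14) and Ngp (-0.01, SE 0.16) followed, and Camp was at 0.12 (SE 0.37). For Elane and Mpo the negative value came with a higher input, and for Cxcr2 with a lower pulldown.

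By diet, the median of the 10 in the ratio was -0.48 with NCD, -0.20 with BFD and -0.46 with HFD_lard odour. Cxcr2 had -0.65 (SE 0.13), -0.37 (SE 0.14) and -0.47 (SE 0.14), and Retnlg -1.30 (SE 0.34), -0.62 (SE 0.36) and -0.68 (SE 0.35). S100a8 had -0.29 (SE 0.21), -0.20 (SE 0.22) and -0.45 (SE 0.22). HFD_lard pool 6 had the lowest S100a8 log2 ratio of all pools, 1.05, and the diet values without that pool are not given. Between odours, all 10 genes had a positive value for BFD over NCD, from 0.05 (SE 0.24) for S100a9 to 0.72 (SE 0.49) for Elane. The median was 0.43, against 0.01 over all genes. These genes share the same pools, so their signs are not independent. The share of all genes with a positive value was not computed for any of the comparisons between odours. For HFD_lard over NCD 7 of the 10 were positive (median 0.17), and for HFD_lard over BFD 2 were (median -0.11). Mmp9 differed by 0.06 (SE 0.17) for BFD over NCD and -0.03 (SE 0.18) for HFD_lard over BFD, and Mpo by -0.94 (SE 0.33) for HFD_lard over BFD. In BFD pool 1 the Mpo log2 ratio was 0.16, against -1.14 to -0.81 in the other BFD pools. The Mpo difference between these odours without that pool is not given.

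The libraries that stood apart bear on these values. Input of no-odour pool 4 had the highest level of S100a8, S100a9, Ngp, Mmp8 and Mmp9 among all 21 inputs. Without that pool, the difference of any odour to none in unfitted log2 ratios was -0.49 instead of -0.31 for S100a8, -0.46 instead of -0.28 for S100a9, -0.28 instead of -0.13 for Mmp9 and 0.00 instead of 0.13 for Camp, and the S100a8 input difference was -0.03 instead of -0.22. Without BFD pool 1 the S100a8 pulldown difference was -0.49 instead of -0.54. The S100a9 input difference was 0.11 instead of -0.08 without no-odour pool 4, and those of Ngp, Camp and Retnlg were 0.58, 0.51 and 0.45 instead of 0.35, 0.23 and 0.23. The Cxcr2 ratio difference was -0.52 instead of -0.50. Without no-odour pool 1 the ratio difference was -0.16 for S100a9, -0.83 instead of -0.52 for Elane and -0.40 instead of -0.60 for Mpo, and the Elane pulldown difference was 0.19 instead of 0.54. Without no-odour pool 3 the Elane ratio difference was -0.21, and without no-odour pool 2 the Ngp pulldown difference was 0.15 instead of 0.34. Over all single pools left out, the ratio difference ran from -0.28 to -0.03 for Mmp9 and from 0.00 to 0.39 for Camp, the other ends coming without no-odour pool 2 and no-odour pool 3. The signs of the Ngp ratio (-0.16 to 0.12), Mpo pulldown (-0.19 to 0.18) and S100a9 input differences (-0.18 to 0.11) depended on which pool was left out.

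Across libraries the summed neutrophil genes moved with sums of several other cell types. With odour groups centred, the log2 sum of the 10 genes and that of 9 erythroid genes (globins, Alas2 and others) had a Pearson correlation of 0.97 over the 21 pulldowns and 0.98 over the 21 inputs, a description of libraries that share depth and preparation. With osteoclast sums the values were 0.93 and 0.89, with macrophage sums 0.90 and 0.73, and with supporting cell sums -0.91 and 0.41. The sum of the 10 is mostly S100a8, S100a9 and Mmp9. In the input of no-odour pool 4 the 10 genes summed to 110 CPM and the erythroid genes to 732 CPM, and in that of HFD_lard pool 6 to 93.4 and 661 CPM, the top values of the 21 inputs. The pulldown of BFD pool 1 had the lowest sums of both, 114 and 1350 CPM, and the highest sum of 6 supporting cell genes, 4960 CPM against a median of 2640 CPM.

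Exon length moved with the same libraries. Within a library, the rank correlation between exon length and the deviation of each gene from its group mean, taken across 21168 genes, was -0.33 in the input of no-odour pool 4 and -0.21 in that of HFD_lard pool 6, the lowest of the inputs, meaning shorter genes were higher there. It was 0.18 in the pulldown of BFD pool 1. Over the 21 inputs this value had a correlation of -0.93 with the summed level of the neutrophil genes within odour groups, and over the pulldowns of -0.87. Its part in the levels was not tested.

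**Figure D4:**
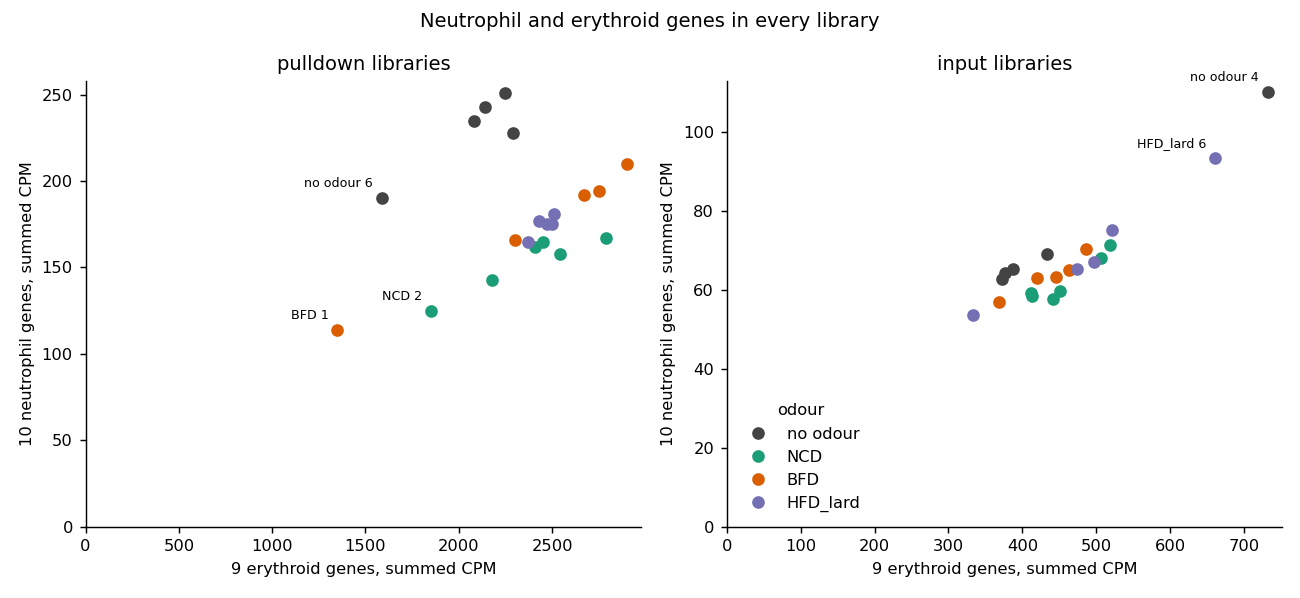
Summed CPM of the 10 neutrophil genes (y axis) against summed CPM of 9 erythroid genes (x axis) in each of the 21 pulldown (left) and 21 input (right) libraries, coloured by odour. Points rise together within a group, the pulldowns without odour (190 to 251 CPM) lie above odour pools of like erythroid level, and the inputs of no-odour pool 4 and HFD_lard pool 6 stand at the top right.

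The summed pulldown level of the erythroid genes was 1590 to 2290 CPM without and 1350 to 2900 CPM with odour, and the neutrophil sum was 190 to 251 and 114 to 210 CPM, so the groups overlapped in both. None of the 9 erythroid genes passed the test for any odour over none in the pulldown libraries, where 4 had an unadjusted p under 0.05 in edgeR. The share of all genes at that unadjusted threshold is not given, here or below. Of the macrophage genes, 8 of 8 were called lower there, against 3.63% of all genes, with sums of 120 to 167 and 62.4 to 97.8 CPM, beside the 5 of 7 bone and 3 of 7 osteoclast genes given above.

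Of 76 other neutrophil genes in 5 lists, 59 passed the filter and were tested. The lists were chosen with earlier results of these data known, so the p-values below do not rest on an independent choice of genes. In the pulldown over input comparison edgeR called 29 of the 59 higher and 15 lower at an adjusted p under 0.001, where 34.0% of all genes were called higher and 33.3% lower. The median log2 value was 0.28. Among the 59 were 12 ligand and adhesion genes that recruit neutrophils and are made by other cells. Of these 12, 1 was called higher and 7 lower, and every count of the 59 below includes them. Ly6g, the standard surface marker of mouse neutrophils, did not pass the filter, with a mean of 0.0563 CPM in the pulldowns and 0.0784 CPM in the inputs.

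Receptors and signalling genes leaned to the pulldown, with 12 of 17 higher (median 0.89). Among other granule proteins 8 of 15 were higher and 2 lower, with Stfa2l1, a stefin, at 1.98 (SE 0.11, adjusted p 5.16e-15 in edgeR), while lysozyme Lyz2 was lower at -0.52 (SE 0.04, adjusted p 1.7e-12). Prtn3, an azurophil protease like Elane and named here after its value was seen, was higher at 1.43 (SE 0.09, adjusted p 3.44e-14), on the other side of 0 from Elane and Mpo.

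Lineage factors had 4 of 7 higher and 2 lower, with Spi1, the gene of PU.1, at 1.46 (SE 0.05, adjusted p 1.21e-19). Hdc, the enzyme that makes histamine, was higher at 0.96 (SE 0.04, adjusted p 1.49e-17). In the oxidase group 4 of 8 were higher and 3 lower, with Rac2, a small GTPase of the oxidase, at 1.04 (SE 0.05, adjusted p 2.23e-16). Ligands and adhesion molecules that recruit neutrophils, made by other cells, went the other way, with 1 of 12 higher and 7 lower (median -0.72). Cxcl12 was at -1.58 (SE 0.06, adjusted p 6.25e-18) and Cxcl5, a ligand of Cxcr2, at -2.12 (SE 0.14, adjusted p 4.61e-12).

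**Figure D5:**
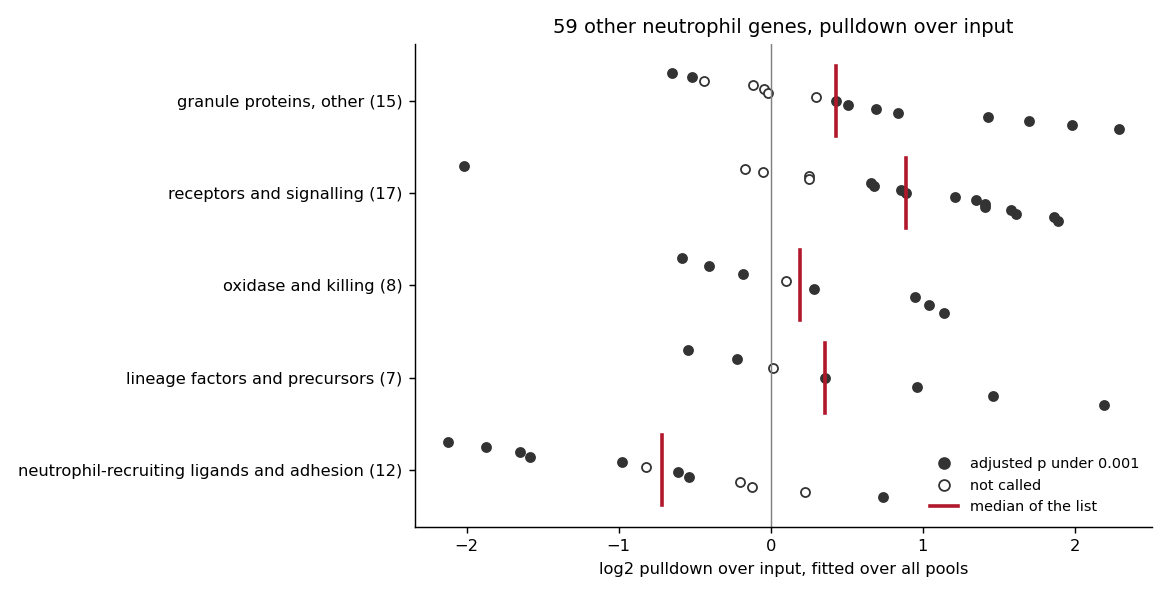
Fitted log2 pulldown over input (x axis) of 59 other neutrophil genes in 5 lists (rows, number tested in brackets), filled where the adjusted p was under 0.001, with list medians as red lines. Receptors and signalling genes lie mostly above 0 and recruiting ligands and adhesion genes mostly below it.

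With odour, 19 of the 59 other genes fell and 1 rose in the pulldown libraries, where 3.63% of all genes were called lower and 3.68% higher. Those that fell included Lyz2 (-0.54, SE 0.04, adjusted p 7.4e-10), Ncf1, a cytosolic oxidase subunit (-0.70, SE 0.07, adjusted p 6e-08), Itgam, the integrin chain CD11b (-0.82, SE 0.08, adjusted p 9.93e-08) and Cyba, a membrane subunit (-0.93, SE 0.10, adjusted p 5.42e-07). Ltf, the specific granule protein lactoferrin, rose by 0.45 (SE 0.06, adjusted p 1.72e-05). It averaged 37.6 CPM in the pulldowns and 37.2 CPM in the inputs, and which cells gave the Ltf counts was not tested. Lyz2, Ncf1, Itgam and Cyba are expressed by macrophages too, and 8 of 8 macrophage genes were called lower in the same libraries. Their part in the result was not tested. With the ribosomal RNA share of each library as a covariate, added after the data were seen, 3 of the 59 were called, 2 lower. The pulldown share had a median of 26.8% without and 14.1% with odour, so this fit cannot fully tell share and odour apart. Without no-odour pool 1, 2 or 3 the count was 13, 12 or 13.

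In the input libraries 3 of the 59 fell with odour and 0 rose, where 6.40% of all genes were called lower and 5.05% higher. They were Hdc (-0.34, SE 0.06, adjusted p 0.000214), Cd63, a granule membrane protein (-0.54, SE 0.10, adjusted p 0.000273) and Cyba (-0.73, SE 0.15, adjusted p 0.00059). Without no-odour pool 4, or without no-odour pool 2, 1 of the 59 was called, and 0 with a covariate for ribosomal RNA share, where 4 had an unadjusted p under 0.05 in edgeR. The input share had a median of 27.8% without and 14.2% with odour, so that fit cannot fully tell share and odour apart.

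In the ratio, any odour over none was called for 3 of the 59, all lower, where 2.37% of all genes were called lower and 3.10% higher. Cybb, the catalytic oxidase subunit, was at 7.60 ± 0.91 CPM in the pulldowns without odour and 4.28 ± 0.60 with odour, with inputs of 6.78 ± 0.37 and 6.40 ± 0.50 CPM (SD, n = 5 and 16), and the fitted log2 change was -0.76 (SE 0.12, adjusted p 7.77e-05 in edgeR). Its pulldown ranges, 6.52 to 8.77 and 3.10 to 5.25 CPM, did not overlap. Ncf1 (-0.59, SE 0.09, adjusted p 9.15e-05) and Itgam (-0.67, SE 0.12, adjusted p 0.000331) were the others. The macrophage genes moved the same way in this ratio, with a median log2 of -0.40 against -0.35 for the 59. Of the 8 macrophage genes 1, Csf1r, was called lower and 6 had an unadjusted p under 0.05 in edgeR. Which cells gave the Cybb, Ncf1 and Itgam counts was not tested. Without no-odour pool 4 the count was 6 and without BFD pool 1 it was 7, and DESeq2 called 7, of which 2 were higher.

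By diet each odour had 1 call among the 59, Ncf1 with NCD (-0.64, SE 0.11, adjusted p 0.000829), Cybb with BFD (-0.84, SE 0.15, adjusted p 0.000315) and Cybb with HFD_lard (-0.82, SE 0.15, adjusted p 0.000671). Over all genes 0.524%, 3.78% and 1.22% were called. With each of the 21 pools left out in turn, 15 fits for NCD, 5 for BFD and 10 for HFD_lard gave no call, and with a covariate for ribosomal RNA share the counts were 0, 0 and 1. Between odours edgeR called 0 of the 59 in each of 3 comparisons, as did DESeq2, where 0.0378% of all genes were called for HFD_lard over BFD, 0.0236% for HFD_lard over NCD and 0.00945% for BFD over NCD. At an unadjusted p under 0.05 edgeR had 2, 3 and 5 of the 59, with no share of all genes to set beside them.

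Within library types the 10 genes were coupled to different degrees. In the inputs, the log2 level of each gene, centred within odour groups, had a correlation with the mean of the other 9 between 0.04 for Cxcr2 and 0.87 for S100a9, and Mpo was at 0.74. In the pulldowns it ran from -0.30 for Mpo to 0.51 for Camp. There it was below 0 for Retnlg, Mmp8, Mmp9, Cxcr2 and Elane as well, so the mean of the 10 did not track each gene alike. A pulldown and its own input were loosely tied, from -0.34 for Cxcr2 to 0.45 for Mpo over the 21 pools. The genes of the table most like the mean of the 10 over the 21 pulldowns were Scg5 (0.81), Olfr872, Tmem243, Pacsin3, Gm3625, 1810041H14Rik, Bglap2, 1110038B12Rik, Tmem159 and Epb42 (0.74). Over the 21 inputs they were Dbi (0.95), AU021092, S100a5, Etfa and Pigp (0.94). Both lists are the top of a ranking of all tested genes, and the values that chance would give there were not computed. Olfr872 and Gm3625 averaged only 0.223 and 0.258 CPM in the pulldowns.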

How the data were processed

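The authors quantified reads with Salmon on GRCm38 and deposited 1 table of estimated counts per gene for 42 libraries, with 30.9% of values not whole. Their division of pulldown by input is not part of the deposited values. The estimated counts were rounded and tested with edgeR 4.0.16 (quasi-likelihood, robust; R 4.3.3). Genes were kept by filterByExpr with a minimum count of 10, libraries scaled by TMM, and the pulldown-by-odour terms fitted with a term for the pool, or without it within 1 library type. A call is an adjusted p (Benjamini-Hochberg over 21168 genes) under 0.001. DESeq2 1.42.0 was an alternative. The edgeR fits of any odour over none were tested on simulated data. The 10 genes and all lists were chosen with earlier results of these data known. Among other neutrophil genes, those named had the smallest adjusted p among the calls, up to 4 in each direction. One gene that this rule names is not reported here. The most alike genes were the 10 (pulldown) or 5 (input) tested genes with the highest Pearson correlation to the members' mean within odour groups. Gene positions are GENCODE M21 on GRCm38, upstream sequences RefSeq GRCm38.p6, matched by symbol. A pulldown and input share a pool by their labels. Across genes, pulldown deviations from the group mean correlated with those of the matching input at a median of 0.01 (range -0.08 to 0.21). No 2 libraries of a group agreed within counting noise (chi-square per degree of freedom 3.27 or more over 90 pairs). Pools differ in mice, so p-values measure the spread between pools.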

Additional observations from a re-analysis of the deposited data

Results flagged for a closer look

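Among 120 groups of 5 or 6 values, 9 held a sample far from the rest, where chance gives about 1 in 20. Input of no-odour pool 4 held 25.8 CPM of S100a8 (median of the others 13.2), 35.4 CPM of S100a9 (18.1) and 1.19 CPM of Camp (0.412). Input of HFD_lard pool 6 held 0.974 CPM of Retnlg (0.494), and its pulldown 33.1 CPM of Mmp9 (30.9). The pulldown of no-odour pool 6 held 69.1 CPM of S100a9 (87.4). The log2 ratio of S100a8 was 1.38 in NCD pool 2 (2.04), that of Cxcr2 0.39 in BFD pool 4 (0.14) and that of Mpo 0.16 in BFD pool 1 (-0.93).

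The pulldown-to-input difference itself differed between odour and no odour in edgeR for Cybb (-0.76, adjusted p 7.77e-05), Ncf1 (-0.59, adjusted p 9.15e-05) and Itgam (-0.67, adjusted p 0.000331). By diet it did so for Ncf1 with NCD (-0.64, adjusted p 0.000829), Cybb with BFD (-0.84, adjusted p 0.000315) and Cybb with HFD_lard odour (-0.82, adjusted p 0.000671). Over all genes 0.524%, 3.78% and 1.22% were called by diet. With 1 pool left out, 15, 5 and 10 of 21 fits called none of the 59 other neutrophil genes.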

How the results depend on the processing

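Counts are of the 59 other neutrophil genes tested. The share of all genes called under each other setting is not given, so whether all genes changed alike is not shown. Pulldown over input gave 44 calls, and 43 to 45 with each pool left out. In the ratio, any odour gave 3 calls, 21 at an adjusted p under 0.05, 5 without the filter, 7 in DESeq2 and 2 to 7 leaving out a pool. NCD, BFD and HFD_lard gave 1 each: at 0.05 they gave 14, 12 and 14, without the filter 2 each, in DESeq2 3, 4 and 4, with the ribosomal RNA share as covariate 0, 0 and 1, and leaving out a pool 0 to 3, 0 to 2 and 0 to 3. HFD_lard gave 2 with DESeq2 size factors. The pulldown libraries gave 20, 37 at 0.05, 3 with the covariate and 12 to 23 leaving out a pool. The lowest was without no-odour pool 2. The input libraries gave 3, 10 at 0.05, 0 with the covariate and 1 to 3 leaving out a pool. Within each library type the ribosomal RNA share differed with odour, so these covariate counts cannot fully tell share and odour apart. The cause was not tested.

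Without the pool as a block, any odour gave 4 calls, NCD 2, BFD 1 and HFD_lard 2. With the replicate number as a block, the pulldown libraries gave 18 and the input libraries 1. Same-numbered libraries of different odours had median correlations of 0.01 and 0.02, so the numbers do not pair the samples. Low counts limit Mmp8, Elane and Camp.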

Other observations

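In pulldown over input, where 34.0% of all genes were called higher and 33.3% lower, edgeR called 8 of 9 erythroid genes higher (median log2 1.69), 4 of 6 platelet genes higher and 1 lower, and 5 of 8 macrophage genes higher (median 0.83). Of the lymphoid lists, 2 of 8 B cell genes were higher and 4 lower, and 1 of 5 T and NK cell genes was lower. Of 7 bone genes 5 were lower, of 4 monocyte genes 2 were lower, and of 5 cycling cell genes 1 was higher and 2 lower. All 6 supporting cell genes were lower (median -1.81), and 6 of 8 sensory neuron genes were higher and 2 lower.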
